A study of Mus musculus with 9 samples.

Results

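The normal myeloid progenitor fraction of the study, called FrII in the labels, was described from the 3 arrays of wild type C57/BL6 mice, out of 9 arrays in the series. FrII cells were sorted for low or positive Mac1 and for c-Kit, with no lineage marker (Lin*) and no Sca-1, from mice aged 2 to 4 months that the labels call wild type, with no transgene or mutation named, and the tissue was given as blood. The sort described for the series also selected CD45.1-negative, CD45.2-positive cells, and whether that step was applied to the wild type mice was not stated. Each wild type array is labelled with its own mouse number while the sample names speak of mice, so n counts arrays and the spread between them may be partly technical. The other 6 arrays, from leukaemic mice with raised Sox4 or with mutations of both alleles of Cebpa, were not used for any value below. Each gene was represented by its probe set of highest mean over the 3 wild type arrays, which gave 18194 genes with exactly 1 symbol, among 45101 probe sets.

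Myeloid progenitors are cells of the blood-forming system that have left the stem cell state and are committed to granulocytes, monocytes or, in part, red cells and megakaryocytes. In the granulocyte line the contents of the primary (azurophil) granules, such as myeloperoxidase and the serine proteases, are made at the promyelocyte stage, and the contents of the secondary and tertiary granules are made later, under the control of factors of the C/EBP family. The stem cell factor receptor c-Kit is present on progenitors and is lost as the cells mature, while the integrin chain αM (Mac1) appears with maturation.

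Values are log2 signals, given as mean ± SD over the 3 arrays (n = 3). Probe sets bind with different strength, so a high signal places a gene in the order of signals and not in the order of transcript numbers. A gene was counted as above background (called) where its signal on each of the 3 arrays exceeded the 95th percentile of 71 odorant and pheromone receptor genes of that array, which are not known to be used in blood cells. This ceiling was 5.39, 5.30 and 5.41 on arrays 1 to 3. It was exceeded by 10084 of 18194 genes (55.4%), while 6842 genes exceeded it on no array and 1268 on only 1 or 2 arrays. The median gene had a mean signal of 6.10, the top decile of genes (10% of them by definition) began at 10.13 and the top hundredth at 12.29. Pearson's r across genes was 0.995 between arrays 1 and 2, 0.988 between arrays 1 and 3 and 0.987 between arrays 2 and 3, as a description, since genes are not independent. The SD over the arrays had a median of 0.18 among genes above background, and it exceeded 0.5 in 553 of them. Array 3 stood apart in part of the genes, and results that rest on it are given with each array's value. The number of arrays, 3, limits the precision of every mean.

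Ribosomal protein genes made up the largest group among the strongest signals, and a primary granule gene led them. Myeloperoxidase (Mpo), the peroxidase of the primary granule that makes hypochlorous acid, had the highest mean signal of all genes, at 13.96, 13.84 and 13.83 on arrays 1 to 3 (13.88 ± 0.07). Of the 30 genes of highest signal, 13 encoded ribosomal proteins, 2 were primary granule genes (Mpo and cathepsin G, Ctsg) and 1 was the calprotectin subunit S100a9. Others among the 30 were the actin-binding thymosins Tmsb10 (13.69 ± 0.08) and Tmsb4x (13.50 ± 0.09), the microtubule regulator Stmn1 (13.34 ± 0.04), the elongation factor Eef1a1 (13.60 ± 0.05), the nuclear transport GTPase Ran (13.31 ± 0.03) and the nucleolar protein nucleophosmin, Npm1 (13.29 ± 0.07). The long non-coding RNA Malat1 (13.69 ± 0.06) and the Raf kinase inhibitor Pebp1 (13.75 ± 0.07) also lay there. Widening to 100 genes gave 31 ribosomal protein genes, 4 genes of oxidative phosphorylation, 3 primary granule genes and 3 antioxidant genes, and 50 of the 100 stood in no list. The signal adaptor Tyrobp, used by myeloid activating receptors, and the myeloid gene Plac8 were among these 50, with signals of 13.12, 13.01 and 13.08 for Tyrobp and of 12.89, 12.92 and 12.86 for Plac8.

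The plot of list members shows where each functional group fell on this scale, with primary granule, ribosome and energy genes to the right and the medians of the erythroid, megakaryocyte and lymphoid lists below the background ceiling.

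**Figure D1:**
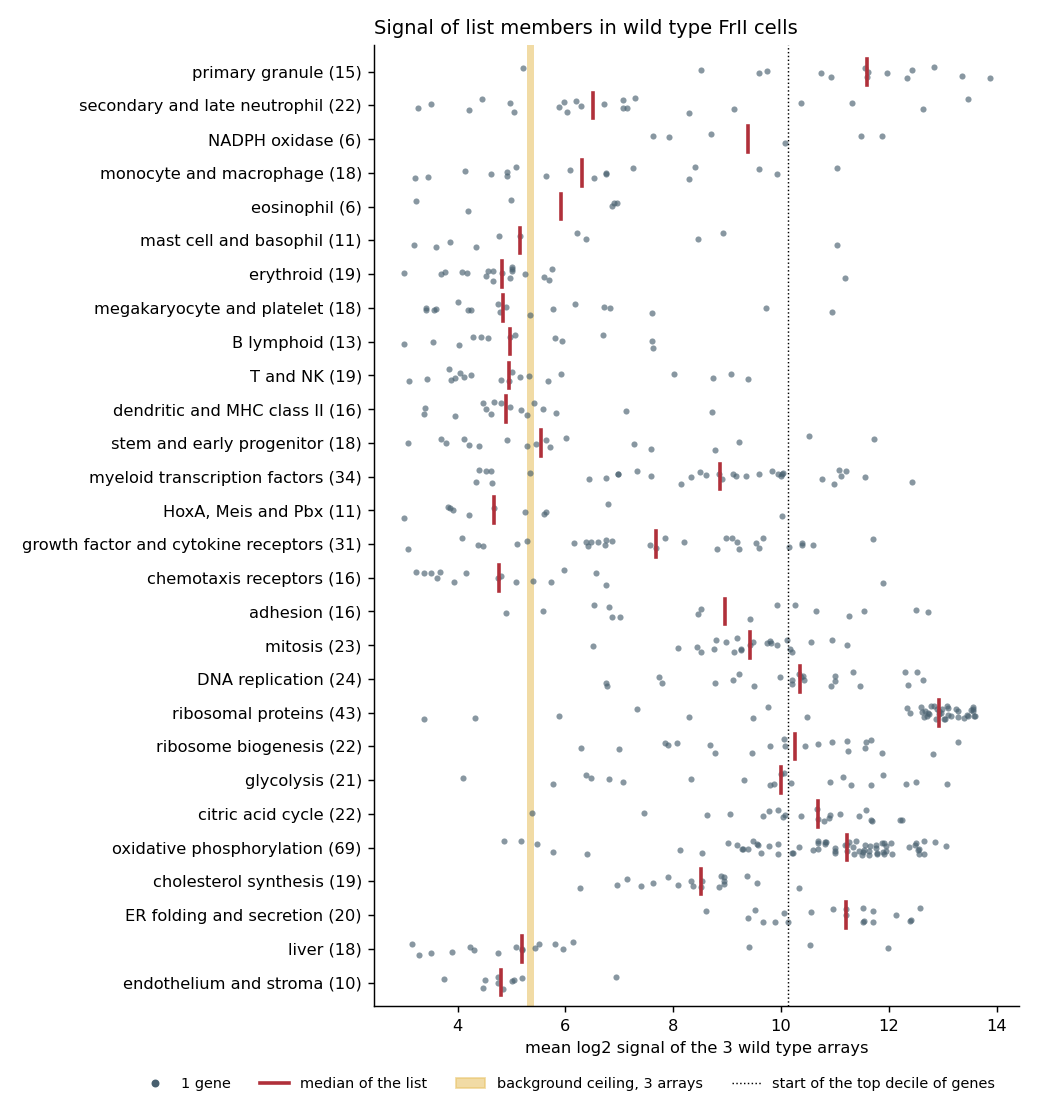
Mean log2 signal over the 3 wild type arrays (horizontal axis) of the measured members of the main gene lists (1 point per gene, number of members in parentheses, points spread vertically for legibility). Red bars mark list medians, which ran from 4.67 for HoxA, Meis and Pbx to 12.92 for ribosomal proteins, the yellow band spans the background ceilings of the 3 arrays and the dotted line is where the top decile of all genes begins, at 10.13.

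The markers used for the sort were checked first. Kit, the receptor for stem cell factor, had signals of 9.17, 9.25 and 9.11, above background on every array, and its other probe set had a mean of 8.85. Ptprc, which encodes CD45, had signals of 11.36, 11.36 and 11.26. Itgam, which encodes the Mac1 chain αM, had signals of 4.99, 4.76 and 4.97 from its only probe set, below the ceiling on all 3 arrays, so the Mac1 side of the gate was not seen in the RNA. The Sca-1 gene was not analysed here. The Y-linked genes Kdm5d (10.74 ± 0.13), Eif2s3y (10.57 ± 0.14) and Uty (7.76 ± 0.44) were above background on all 3 arrays, and Xist, the X-inactivation RNA, was at 4.96, 4.88 and 5.34 and below the ceiling on each.

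Surface molecules that define granulocyte and monocyte progenitors were among the strong signals. Cd34, a sialomucin of stem and progenitor cells, gave 11.67, 11.68 and 11.85, and the Fcγ receptor genes Fcgr3 and Fcgr2b, which antibodies against CD16/32 detect together, gave 11.42, 11.45 and 11.43 and 11.80, 11.79 and 11.41. All 3 genes lay in the top decile. In the whole list of progenitor surface genes, 12 of 16 were above background and 7 were in the top decile, among them the "do not eat me" signal Cd47 (12.73 ± 0.14), Cd24a (12.56 ± 0.07), the tetraspanin Cd53 (12.52 ± 0.07) and Cd93 (10.45 ± 0.23). Members without a call were the cytokine receptor Flt3 (4.68, 5.30 and 5.30), the interleukin 7 receptor Il7r (4.72, 4.36 and 4.44), Cd27 (4.72, 3.95 and 4.61) and the stem cell marker Slamf1 (5.71, 5.31 and 5.36), of which Flt3 and Il7r mark lymphoid and early multipotent progenitors. Flt3 exceeded the ceiling on 1 array and Slamf1 on 2.

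Primary granule genes were the lineage list of highest median signal. Of 15 measured members, 14 were above background and 11 lay in the top decile, against 55.4% and 10% of all genes, and the median member lay at the 97.7th percentile of signal. Cathepsin G, a serine protease that kills bacteria, gave 13.37, 13.32 and 13.37 and neutrophil elastase (Elane) gave 12.64, 12.68 and 13.22. The arrays of Elane did not all lie together, since array 3 was above the other two by over 0.5. Proteinase 3 (Prtn3) gave 11.64, 11.66 and 11.37, lysozyme (Lyz2) 12.39, 12.39 and 12.53, and serglycin (Srgn), the proteoglycan core that packs proteases into granules, 12.20, 12.39 and 12.44. Serpinb1a, an inhibitor of these serine proteases in the cytoplasm, was at 11.97 ± 0.04, the lysosomal hexosaminidase Hexa at 11.61 ± 0.07 and the membrane protein Ms4a3, a marker of granulocyte and monocyte progenitors, at 11.60 ± 0.18. Further down were the protease inhibitor Cst7 (9.59 ± 0.13) and cathepsin C (Ctsc, 8.51 ± 0.06), the enzyme that activates the granule proteases by trimming them. The ficolin Fcnb was the only member not called, with 5.32, 5.59 and 4.73, and exceeded the ceiling on array 2 alone.

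The promoters of the 4 protease and peroxidase genes are shown because they encode the antimicrobial enzymes that characterise the primary granule, and all 4 held the motif described here. The 250 bases before the start are given 5′ to 3′ on the gene's strand, from RefSeq on GRCm38.p6, with every AGGAAGT, the core bound by Ets factors such as PU.1, in capitals. Mpo lies at chr11:87793534-87793783 (plus strand), Elane at chr10:79886062-79886311 (plus), Prtn3 at chr10:79879417-79879666 (plus) and Ctsg at chr14:56102575-56102824 (minus).
Mpo: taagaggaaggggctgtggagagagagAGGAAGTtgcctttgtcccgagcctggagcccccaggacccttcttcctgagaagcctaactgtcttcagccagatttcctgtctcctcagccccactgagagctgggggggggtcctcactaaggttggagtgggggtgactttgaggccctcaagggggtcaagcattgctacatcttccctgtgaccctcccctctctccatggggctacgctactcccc
Elane: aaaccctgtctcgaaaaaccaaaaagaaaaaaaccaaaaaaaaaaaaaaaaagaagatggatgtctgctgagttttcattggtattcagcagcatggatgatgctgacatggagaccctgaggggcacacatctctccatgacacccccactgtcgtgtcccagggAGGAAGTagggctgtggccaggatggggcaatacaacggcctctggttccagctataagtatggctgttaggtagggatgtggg
Prtn3: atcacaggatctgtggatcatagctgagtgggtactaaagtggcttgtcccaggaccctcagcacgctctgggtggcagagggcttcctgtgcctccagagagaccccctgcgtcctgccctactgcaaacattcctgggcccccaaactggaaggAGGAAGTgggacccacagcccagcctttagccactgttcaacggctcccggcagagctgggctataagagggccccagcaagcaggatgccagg
Ctsg: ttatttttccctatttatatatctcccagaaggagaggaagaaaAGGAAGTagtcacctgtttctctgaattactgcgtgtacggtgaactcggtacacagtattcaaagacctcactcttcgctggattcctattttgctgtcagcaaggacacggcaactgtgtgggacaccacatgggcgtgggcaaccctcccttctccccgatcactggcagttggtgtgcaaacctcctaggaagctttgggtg
Each of the 4 held 1 match, which began 223 bases before the start in Mpo, 84 in Elane, 94 in Prtn3 and 206 in Ctsg. Elane and Prtn3 are neighbours on chromosome 10. This motif was chosen after these sequences were seen. Both strands searched, 8 of the 14 primary granule genes with a promoter in the table held it, against 7.59% of 14453 genes and 7.69% of all 32851 promoters of the table, and 4 of the 10 members not printed did. Srgn, Hexa, Ms4a3, Nkg7, Mgst1 and Gusb did not hold it. In the other leukocyte lists it stood in 6 of 18 secondary and late neutrophil genes, 5 of 11 B lymphoid genes, 5 of 14 T and NK genes, 1 of 13 monocyte and macrophage genes, 0 of 9 mast cell and basophil genes and 0 of 10 dendritic and MHC class II genes, and in 1 of 27 myeloid transcription factor genes. A match is a run of letters and no evidence of binding, and the arrays do not measure binding.

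Secondary granule and late neutrophil genes were split. Of 22 measured members, 13 were above background (59.1%, near the 55.4% of all genes) and 4 were in the top decile. With the 99th percentile of the receptor genes as ceiling, 8 of the 22 were above it. The 4 in the top decile were the calprotectin subunits S100a9 (13.61, 13.65 and 13.14) and S100a8 (12.55, 12.85 and 12.53), the peptidoglycan receptor Pglyrp1 (11.32, 11.70 and 10.91) and haptoglobin (Hp, 10.34, 10.45 and 10.34). Olfm4, a matrix protein of specific granules, was also above background, at 9.14, 9.20 and 9.01. The iron-binding secondary granule protein lactoferrin (Ltf) gave 4.86, 5.18 and 5.09, and the gelatinase Mmp9 4.94, 5.09 and 4.89 and the collagenase Mmp8 4.08, 4.33 and 4.96, none of them above the ceiling on any array. Lipocalin 2 (Lcn2, 6.30, 6.22 and 5.14), the granule protein Ngp (6.47, 6.78 and 5.37) and the chemokine receptor Cxcr2 (6.58, 6.30 and 5.04) exceeded the ceiling on arrays 1 and 2 and not on array 3. Without array 3, 16 of the 22 members were above background. The acute phase gene Orm1 (3.27 ± 0.15), the formyl peptide receptor Fpr2 (3.51 ± 0.35) and the protease inhibitor Stfa3 (4.21 ± 0.40) had the lowest signals of the list. In sorted bulk cells, fewer cells that carry a transcript and less transcript per cell cannot be told apart, and this holds for every level given here.

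Genes of the NADPH oxidase, which makes the oxidative burst, were above background in 6 of 6 cases. The cytoplasmic subunit Ncf1 (11.81, 11.96 and 11.88) and the GTPase Rac1 (11.63, 11.49 and 11.31) lay in the top decile, while the membrane subunits were lower on the scale, with Cyba at 8.76, 8.91 and 8.42 and the catalytic subunit Cybb at 8.19, 8.21 and 6.46. For Cybb, array 3 lay below both other arrays by over 1.5.

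**Figure D2:**
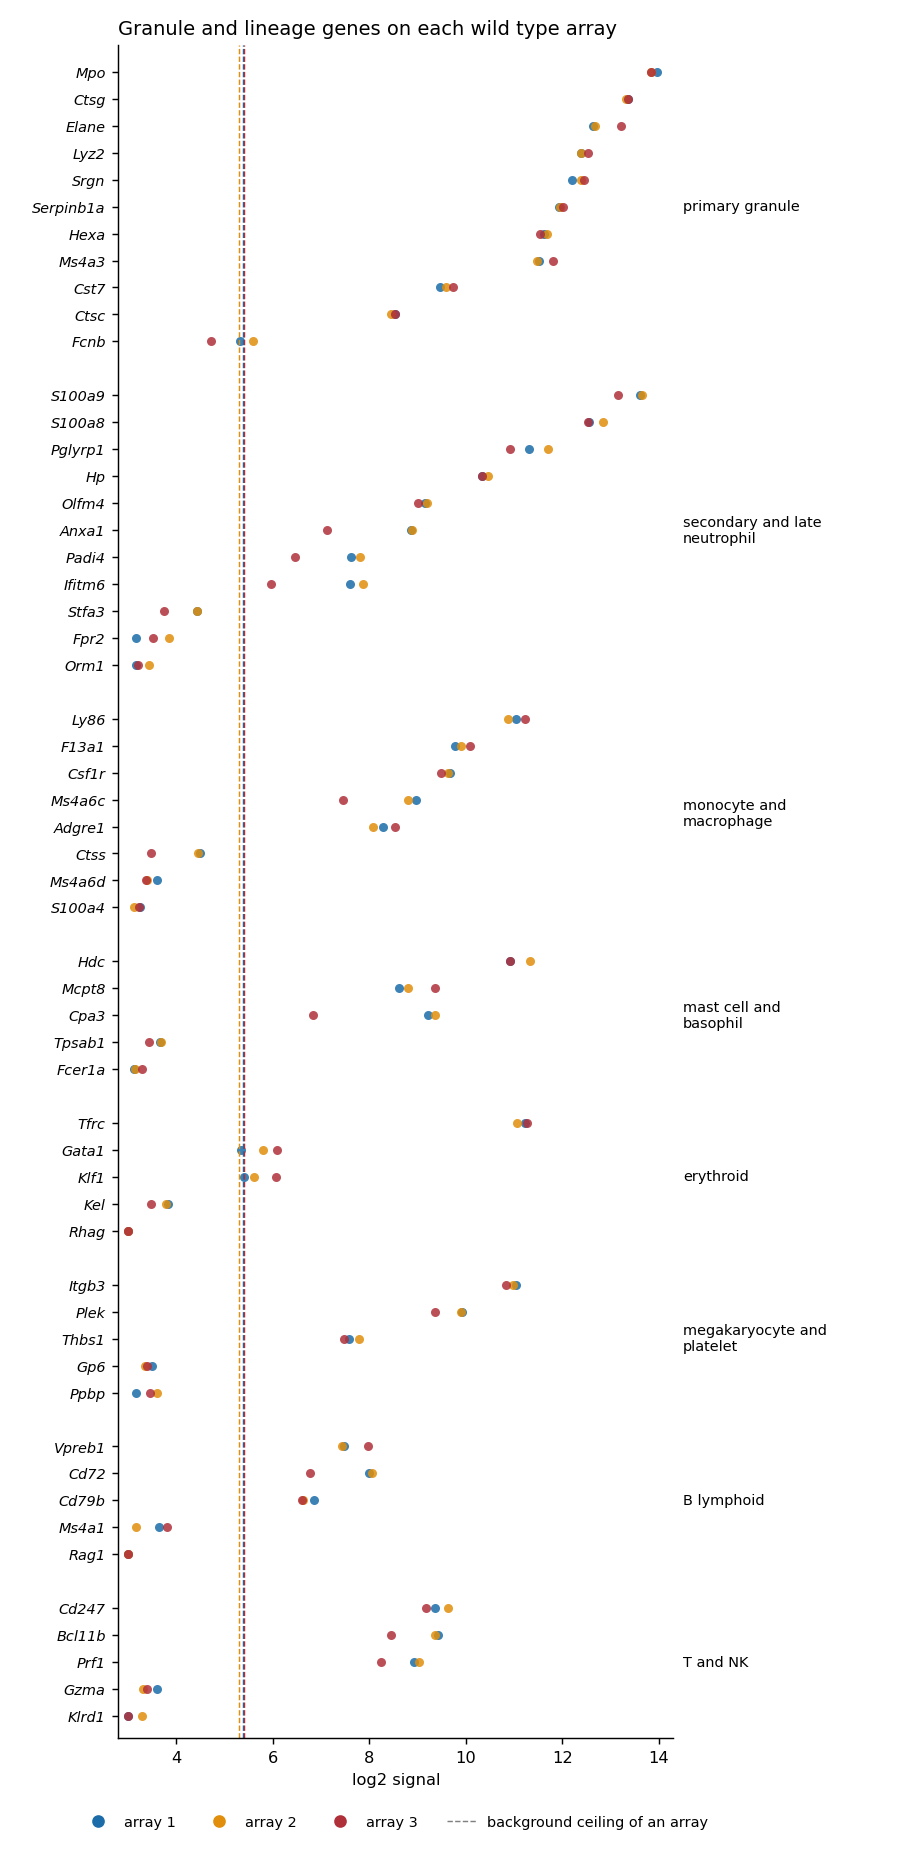
Log2 signal (horizontal axis) of granule and lineage genes on wild type arrays 1 to 3 (colours), with members of high and of low signal from each list and the background ceiling of each array as dashed lines. Primary granule genes other than Fcnb lie above 8, while the lower members of the erythroid, megakaryocyte and lymphoid lists lie to the left of the ceiling, and array 3 lies to the left of the other arrays for Anxa1, Padi4, Ifitm6 and Cpa3.

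Monocyte and macrophage genes were present in part. Of 18 members 10 were above background, close to the share of all genes, and 1 was in the top decile. That member was Ly86 (11.04, 10.88 and 11.22), the MD-1 protein that pairs with a Toll-like receptor relative. Coagulation factor XIII subunit F13a1 (9.78, 9.91 and 10.09), the receptor for macrophage colony-stimulating factor Csf1r (9.66, 9.63 and 9.50) and Adgre1 (8.28, 8.08 and 8.54), which encodes the F4/80 antigen, were above background on every array with less than 0.5 between the arrays. The level of Csf1r depended on the probe set, since its others had means of 7.42 and 6.77 (called). Irf8, a transcription factor that favours monocytes and dendritic cells over neutrophils, gave 7.38, 7.33 and 5.54, so that array 3 was near the ceiling. Other members called on every array were Ms4a6c (8.97, 8.79 and 7.45), the pore-forming protein Mpeg1 (7.26 ± 0.04), the chemokine receptor Ccr2 (by its highest probe set only), the lysosomal Cd68 (6.52 ± 0.46) and the proteoglycan Vcan (5.64 ± 0.01). Fibronectin (Fn1, 6.54, 6.74 and 4.97) exceeded the ceiling on 2 arrays and Cx3cr1 (5.08, 5.44 and 4.75) on 1. The remaining 6 members exceeded it on no array, namely cathepsin S (Ctss) at 4.14 ± 0.57, S100a4 at 3.20 ± 0.07, Ms4a6d at 3.46 ± 0.13, the lectin Lgals3 at 4.91 ± 0.07, Klf4 at 4.61 ± 0.38 and the lipopolysaccharide co-receptor Cd14 at 4.91 ± 0.41.

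Mast cell, basophil and eosinophil genes were called in shares not far below the 55.4% of all genes, and some signals were strong. Histidine decarboxylase (Hdc), which makes histamine, gave 10.92, 11.32 and 10.91, the basophil protease Mcpt8 8.61, 8.80 and 9.37 and carboxypeptidase A3 (Cpa3), a protease of mast cell granules, 9.21, 9.36 and 6.83. The arrays of Cpa3 were far apart, array 3 being over 2 below both others. In all, 5 of 11 mast cell and basophil genes (45.5%) were above background, and the IgE receptor chain Fcer1a (3.19 ± 0.09), the tryptase Tpsab1 (3.60 ± 0.14) and the mast cell chymase Mcpt4 (3.86 ± 0.06) were at the bottom of the scale. Of 6 eosinophil genes 3 were above background, with the interleukin 5 receptor Il5ra at 7.22, 7.08 and 6.28, the arachidonate lipoxygenase Alox15 at 6.93, 6.83 and 6.94 and the granule protein Prg3 at 7.39, 7.78 and 5.68. Eosinophil peroxidase (Epx, 4.19 ± 0.21) and the eotaxin receptor Ccr3 (3.24 ± 0.26) were below background on all arrays.

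Erythroid genes were mostly at background, with 3 of 19 above it (15.8%, against 55.4% of all genes). The transferrin receptor Tfrc, which all dividing cells use to take up iron, gave 11.23, 11.06 and 11.28, and the other members called were the erythroid factor Klf1 (5.41, 5.60 and 6.07) and the blood group gene Rhd (5.41, 5.69 and 5.72), both near the ceiling. Gata1 (5.35, 5.80 and 6.08) exceeded it on 2 arrays, and the receptor for erythropoietin, Epor (4.09 ± 0.18), the blood group protein Kel (3.70 ± 0.19), Aqp1 (3.76 ± 0.08) and Rhag (3.00 ± 0.00, the floor of the deposited values) did not exceed it on any. Haemoglobin α was measured by several probe sets that differed: the probe set annotated to Hba-a2 alone had a mean of 12.66, that of Hba-a1 alone 5.25, and the 3 annotated to both genes had means of 3.90, 4.23 and 6.02. No level is therefore given for haemoglobin α.

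Megakaryocyte and platelet genes were above background in 6 of 18 cases (33.3%, against 55.4% of all genes). The integrin chain Itgb3 gave 11.04, 10.99 and 10.84, pleckstrin (Plek) 9.92, 9.89 and 9.37, thrombospondin (Thbs1) 7.58, 7.79 and 7.47 and the partner integrin chain Itga2b 6.92, 7.33 and 6.23. The platelet glycoprotein Gp9 (6.25, 6.20 and 6.06) and the thrombin receptor F2rl2 (6.70, 6.69 and 6.79) were the other calls. The platelet chemokines Pf4 (3.56 ± 0.23) and Ppbp (3.40 ± 0.23), the collagen receptor Gp6 (3.41 ± 0.07) and the platelet tubulin Tubb1 (4.02 ± 0.35) were among the 10 members below the ceiling on all arrays.

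Lymphoid genes were called in a minority of cases, against 55.4% of all genes, and markers of the same lineage fell on both sides of the ceiling. In the T and NK list 6 of 19 genes were above background, with the receptor chain Cd247 at 9.37, 9.63 and 9.17, the transcription factor Bcl11b at 9.41, 9.35 and 8.45, perforin (Prf1) at 8.93, 9.03 and 8.24 and the adaptor Lat at 8.02 ± 0.02. The kinase Zap70 (6.17, 6.02 and 5.54) and the co-receptor Cd4 (5.89, 5.61 and 5.56) were called nearer the ceiling. The other Cd247 probe sets had means of 6.91 (called), 4.48 and 3.42 (not called), and the other of Cd4 a mean of 4.24 (not called). The CD3 chains Cd3d (5.00 ± 0.12), Cd3e (4.95 ± 0.27) and Cd3g (3.95 ± 0.13) and the granzymes Gzma (3.44 ± 0.14) and Gzmb (3.84 ± 0.26) were among the 11 members below background on every array. In the B lymphoid list 5 of 13 were above background, with the surrogate light chain gene Vpreb1 at 7.48, 7.42 and 7.98, the co-receptor Cd72 at 7.99, 8.05 and 6.78 and the receptor chain Cd79b at 6.85, 6.63 and 6.60. The surrogate light chain gene Igll1 (5.75, 5.79 and 6.24) and Vpreb3 (5.71, 5.82 and 5.88) were called as well. Cd79a (4.98 ± 0.27), the B cell factor Pax5 (5.07 ± 0.29), Ms4a1 (3.54 ± 0.33), which encodes CD20, and the recombinase Rag1 (3.00 ± 0.00, the floor) were among the 8 members not above the ceiling on any array. Of 16 dendritic cell and MHC class II genes 3 were called, namely the transcription factor Tcf4 (8.66, 8.89 and 8.64), Bst2 (7.25, 6.89 and 7.24) and Siglech (5.71, 5.61 and 6.15). The class II chains H2-Aa (4.54, 4.44 and 5.07) and H2-Ab1 (5.25, 5.09 and 5.20) and the invariant chain Cd74 (4.90, 4.76 and 5.27) stayed below it, while the class II chain H2-Eb1 (5.30, 5.35 and 5.58) exceeded it on arrays 2 and 3 and H2-DMa (5.36, 5.08 and 5.42), which loads peptides, on array 3.

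Stem cell genes were called in 9 of 18 cases, again near the share of all genes. Besides Cd34, prominin 1 (Prom1, the CD133 antigen) gave 10.30, 10.33 and 10.92, the elongation complex gene Mllt3 9.18, 9.19 and 9.27, Gata2 8.86, 9.21 and 8.25 and the ligand angiopoietin 1 (Angpt1) 7.78, 7.87 and 6.14. The lowest were Tek (3.08 ± 0.14), the receptor for Angpt1, and the stem cell surface genes Esam (3.70 ± 0.03) and Fgd5 (3.78 ± 0.20), at or near the bottom of the scale. The stem cell factor Mecom (4.91 ± 0.12) and the protein C receptor Procr (4.41 ± 0.31) were below background on all arrays as well.

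Transcription factors of the myeloid lineage were above background in 28 of 34 cases (82.4%) and in the top decile in 7. Myb, required for progenitor proliferation, gave 12.41, 12.55 and 12.35, and Cbfb, the partner of RUNX proteins, 11.54, 11.58 and 11.53. The Myc family members Mycn (11.40, 11.61 and 10.62) and Myc (11.21, 11.29 and 10.85) and the repressor Gfi1 (11.08, 11.20 and 10.94), which favours neutrophils over monocytes, were also in the top decile, together with Etv6 (11.09, 11.11 and 10.73) and Zeb2 (10.76, 11.04 and 10.48). Cebpa, the factor that commits progenitors to the granulocyte line, gave 9.78, 9.67 and 9.31 and lay at the 85.4th percentile, and Runx1 gave 9.87, 9.74 and 10.23. The other C/EBP genes measured were above background on every array, with Cebpg at 9.78, 9.59 and 10.11, Cebpd at 8.62, 8.57 and 8.28 and Cebpb at 7.56, 7.72 and 6.69. Spi1, which encodes PU.1, gave 8.12, 8.35 and 7.95, with all arrays above background by over 2.5. The immediate early factor Egr1 (4.44, 5.20 and 3.94), Egr2 (4.64 ± 0.18), their co-repressor Nab2 (4.34 ± 0.13), Irf4 (4.39 ± 0.27) and Klf4 (4.61 ± 0.38), several of which act on the monocyte side, were below background on all arrays.

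Sox4 depended on the probe set. The probe set of highest signal gave 8.40, 8.81 and 7.78, and 2 more of its 8 probe sets were above background on all arrays, with means of 7.82 and 7.63, while the other 5 had means between 3.00 and 4.55 and were not. Over all genes with more than 1 probe set, 2814 of 9012 (31.2%) had probe sets on both sides of the call, so an absent call or a level rests on the probe set chosen.

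Genes of the HoxA cluster and its Meis and Pbx partners, which mark stem cells and early progenitors, were called in 4 of 11 cases (36.4%). Pbx2 gave 10.11, 10.14 and 9.79 and Hoxa7 6.79 ± 0.19, and Hoxa9 (5.62, 5.45 and 5.76) and Hoxa5 (5.74, 5.64 and 5.52) were just above the ceiling. Hoxa9 and Hoxa5 were each called by their highest probe set only. The other had a mean of 3.74 for Hoxa9 and of 5.15 for Hoxa5 (not called). Meis1 (4.41, 3.95 and 4.26), Hoxa10 (3.95, 3.84 and 3.79) and Hoxa2 (3.00 ± 0.00, the floor) were below it on all arrays. Among factors of the erythroid, megakaryocyte and stem cell programs, 9 of 15 were called (60.0%, near the 55.4% of all genes). Of these, Lmo2 (12.33, 12.09 and 12.14), Erg (11.10, 11.41 and 10.80) and Nfe2 (10.83, 10.75 and 10.48) lay in the top decile, while Gfi1b (5.01 ± 0.20) was below background. Among lymphoid factors 6 of 12 were called, with Ikzf1 at 10.34, 10.61 and 9.92, Tcf3 at 8.46, 8.81 and 7.64 and the regulatory T cell factor Foxp3 at 6.70, 6.85 and 6.71, and Ebf1 (4.28 ± 0.15), Gata3 (4.25 ± 0.12) and Tbx21 (3.78 ± 0.29), which set the B, T and Th1 programs, were below background.

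Growth factor and cytokine receptor genes were above background in 25 of 31 cases (80.6%), and in the top decile in 5. These 5 were the interleukin 17 receptor Il17ra (11.97, 11.89 and 11.28), the interferon γ receptor chain Ifngr1 (10.69, 10.61 and 10.46), the insulin-like growth factor receptor Igf1r (10.80, 10.67 and 9.70), the type I interferon receptor chain Ifnar2 (10.54, 10.43 and 10.18) and the tumour necrosis factor receptor Tnfrsf1b (10.17, 10.41 and 9.85). Array 3 was the lowest array for all 5. Receptors that drive myeloid growth were called at several levels below the top decile. The shared β chain of the receptors for interleukin 3, interleukin 5 and GM-CSF, Csf2rb, gave 9.52, 9.68 and 8.07 (80.4th percentile of the mean). Its α chains gave 7.01, 6.81 and 6.38 (Csf2ra) and 6.38, 6.16 and 5.93 (Il3ra), and the G-CSF receptor Csf3r 7.62, 7.89 and 7.18. Csf1r and Kit, given above, had means of 9.60 and 9.17. Csf2rb2, the second mouse β chain used by interleukin 3 alone, was below background at 4.50, 4.25 and 4.39, as were Il1r1 (4.44, 4.53 and 4.45), Epor and Tek.

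**Figure D3:**
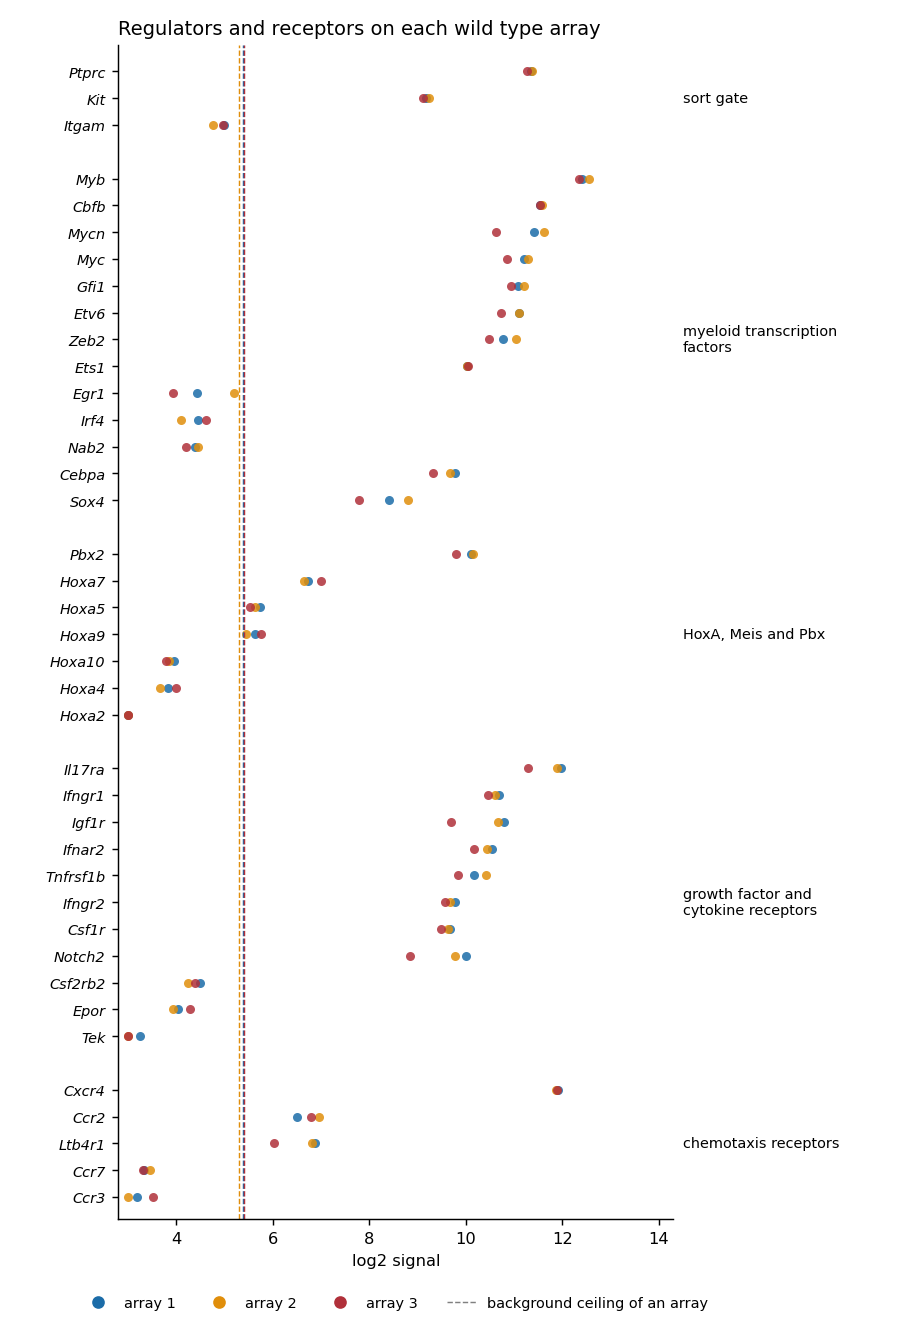
Log2 signal (horizontal axis) of sort gate genes, transcription factors and receptors on wild type arrays 1 to 3 (colours), with dashed lines for the background ceiling of each array. Myb lies near 12.4 and Cxcr4 near 11.9 on all arrays, and Itgam, Egr1, Epor and Ccr7 lie left of the ceilings on all 3 arrays.

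Chemotaxis receptors gave a single strong signal. Cxcr4, the receptor for the marrow chemokine CXCL12 that keeps progenitors in place, gave 11.90, 11.86 and 11.90, and the other calls among 16 genes were the monocyte receptor Ccr2 (6.50, 6.96 and 6.79), the leukotriene receptor Ltb4r1 (6.88, 6.81 and 6.03) and Ccr9 (5.70, 6.04 and 5.46). Ccr2 and Ccr9 were each called by their highest probe set only. The others had means of 5.08, 4.84 and 4.61 for Ccr2 and of 4.94, 4.68, 4.66 and 3.40 for Ccr9. The neutrophil receptor Cxcr2 exceeded the ceiling on arrays 1 and 2, as given above. The formyl peptide receptor Fpr2, the complement receptors C3ar1 (3.67 ± 0.16) and C5ar1 (4.81 ± 0.19) and the chemokine receptors Ccr1 (3.62 ± 0.13) and Ccr3 were among the 9 members that exceeded it on no array. Toll-like receptors and their adaptors were called in 6 of 15 cases. The kinase Irak1 (9.74, 9.85 and 9.39) and the ubiquitin ligase Traf6 (9.31, 9.53 and 9.28), which pass the signal on inside the cell, were above background, as were Tlr4 (8.18, 7.68 and 8.78), which senses lipopolysaccharide, and Myd88 (7.48, 7.52 and 7.40). The lipopolysaccharide partner proteins of Tlr4, Cd14 and Ly96 (3.90 ± 0.16), and the receptors Tlr1 (3.89 ± 0.04) and Tlr8 (3.84 ± 0.05) were below background.

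Adhesion genes were above background in 14 of 16 cases (87.5%, against 55.4% of all genes), with 6 in the top decile. Besides Cd47, these were the sialomucin CD43 gene Spn (12.66, 12.49 and 12.35), the vascular adhesion molecule Vcam1 (11.78, 11.84 and 10.98), the hyaluronan receptor Cd44 (11.44, 11.17 and 11.20), the integrin chain Itgb1 (10.56, 10.64 and 10.73) and Pecam1 (10.40, 10.45 and 9.92). The integrin chains Itga4 (10.06, 10.05 and 9.69), which binds Vcam1, and Itgb2 (10.01, 9.92 and 8.32), the β chain of Mac1, were above background, Itgb2 with array 3 over 1.5 below the others. The αX chain Itgax (5.34, 5.52 and 5.92) exceeded the ceiling on 2 arrays.

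The listed proliferation genes that were measured were all called, against 55.4% of all genes. All 23 measured mitosis genes and all 24 DNA replication genes were above background, and 5 and 15 of them were in the top decile. The replicative helicase subunits Mcm7 (12.64, 12.57 and 12.67) and Mcm6 (12.37, 12.32 and 12.21), the sliding clamp Pcna (12.56, 12.46 and 12.55), the flap nuclease Fen1 (12.42, 12.37 and 12.30) and the ribonucleotide reductase subunits Rrm1 (11.47 ± 0.13) and Rrm2 (11.33 ± 0.21) led the replication list. For Fen1 this rests on its highest probe set, and the other had a mean of 7.98 (called). Mki67, the Ki-67 proliferation antigen, gave 11.32, 11.51 and 10.85, the ubiquitin-conjugating enzyme Ube2c 10.86, 11.07 and 10.89, the spindle motor Kif11 10.61, 10.49 and 10.58 and the mitotic kinase gene Cdk1 10.10, 9.96 and 10.27. The lowest members were Plk1 (6.51 ± 0.38), the polo kinase, and the origin protein Orc1 (6.75 ± 0.42). The SD over the arrays had a median of 0.147 in the mitosis list and 0.208 in the replication list, and array 3 was lower than the mean of the others in 11 of 23 and 8 of 24 genes.

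Ribosomal protein genes held the top of the scale. Of 43 measured genes with a probe set of their own, 41 were above background and 36 were in the top decile, with a list median of 12.92. Rpl41 (13.59 ± 0.04), Rpl38 (13.58 ± 0.05), Rpl35 (13.57 ± 0.04) and Rps3a1 (13.57 ± 0.03) led, and the SD over the arrays had a list median of 0.0629. Rps16 (3.37 ± 0.12) and Rpl37 (4.32 ± 0.06) were below background, each from its only probe set with 1 symbol, and Rps27 (5.89 ± 0.21) was just above it. The factors that build ribosomes were called in 22 of 22 cases, 11 in the top decile, led by Npm1, nucleolin (Ncl, 12.82 ± 0.08), the box C/D proteins Nop56 (11.87 ± 0.04) and Nop58 (11.58 ± 0.04) and the pseudouridine complex proteins Gar1 (11.67 ± 0.17) and Dkc1 (11.25 ± 0.09).

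Genes of energy metabolism were nearly all above background. In oxidative phosphorylation 66 of 69 were, and 50 lay in the top decile, with Ndufb7 of complex I at 13.08, 13.07 and 13.04, Cox5b of complex IV at 12.91, 12.82 and 12.86, Atp5a1 of the ATP synthase at 12.67, 12.59 and 12.72 and cytochrome c (Cycs) at 12.50, 12.59 and 12.42. The 2 members below background on all arrays, Cox7a1 (4.87 ± 0.21) and Cox8b (5.17 ± 0.08), are heart and muscle forms of their subunits, while the general forms Cox7a2 (12.38 ± 0.07) and Cox8a (9.94 ± 0.13) were above it. The remaining member not called, Ndufb4 (4.87, 5.41 and 6.15), exceeded the ceiling on arrays 2 and 3. In the citric acid cycle 21 of 22 were above background, 13 in the top decile, with malate dehydrogenase Mdh2 at 12.25, 12.24 and 12.24 and succinate dehydrogenase Sdha at 12.18, 12.18 and 12.29, and the exception was pyruvate carboxylase (Pcx, 5.33, 5.52 and 5.28), which feeds gluconeogenesis and exceeded the ceiling on array 2 alone.

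Glycolysis followed with 20 of 21 genes, 9 in the top decile. Gapdh (13.19, 13.10 and 12.95), Pgk1 (12.57, 12.47 and 12.45), Pgam1 (12.07, 11.88 and 11.75) and aldolase A (Aldoa, 11.81, 11.77 and 11.42) were high, and the neuronal aldolase Aldoc (4.09 ± 0.14) was below background. Among the isoforms, the lactate dehydrogenase genes Ldhb (12.30, 12.25 and 12.42) and Ldha (11.32, 11.19 and 10.96) were both in the top decile, the hexokinases Hk3 (10.29, 10.34 and 9.35) and Hk2 (10.08, 10.08 and 9.25) were called with array 3 lowest, and the glucose transporter Slc2a1 gave 10.18, 10.08 and 9.92. The pentose phosphate pathway, which supplies NADPH and ribose, was called in 6 of 6 cases, with transketolase (Tkt) at 12.96, 13.08 and 12.74 and Pgd at 12.14, 12.19 and 11.95. Fatty acid oxidation was called in 14 of 14 cases, with the electron transfer flavoproteins Etfa (11.56, 11.54 and 11.70) and Etfb (11.55, 11.47 and 11.69) the strongest, and 12 of the 14 were higher on array 3 than on the mean of the others, by a median of 0.32.

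Biosynthetic pathways were largely above background. All 19 cholesterol synthesis genes were above background but only Hmgcs1 (10.58, 10.45 and 9.96) lay in the top decile, and the list median was 8.51. Fatty acid synthesis was called in 9 of 12 cases, 4 of them in the top decile, with the elongase Elovl5 (11.96, 11.88 and 11.77), ATP citrate lyase (Acly, 11.42, 11.43 and 10.99) and the desaturases Scd2 (11.16, 10.97 and 10.09) and Fads1 (10.59, 10.55 and 10.27), whereas the liver and fat form Scd1 (3.22 ± 0.12) was near the floor. All 21 nucleotide and folate synthesis genes were called, with Nme2 (12.50 ± 0.06), Nme1 (12.06 ± 0.06) and the purine enzyme Paics (11.32 ± 0.17) the strongest. For amino acid and polyamine supply 18 of 20 were called, led by ornithine decarboxylase (Odc1, 11.84 ± 0.09), which starts polyamine synthesis, and by the serine pathway enzymes Psat1 (11.10 ± 0.17) and Phgdh (10.50 ± 0.15), and the cystine carrier Slc7a11 (3.67 ± 0.31) was below background. In heme synthesis 8 of 11 were called (72.7%, against 55.4% of all genes). The general first enzyme Alas1 gave 10.28, 10.40 and 9.61. The erythroid form Alas2 gave 4.72, 4.98 and 4.75, below background on every array.

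Genes of the secretory route and of defence against oxidants were largely above background. All 20 genes of folding and secretion in the endoplasmic reticulum were above background and 14 were in the top decile, among them the chaperones Hsp90b1 (12.62, 12.48 and 12.64) and Hspa5 (12.43, 12.34 and 12.49), the disulphide isomerase Pdia3 (12.43, 12.32 and 12.41) and calreticulin (Calr, 12.25, 12.22 and 11.91), which folds myeloperoxidase. Antioxidant genes were called in 14 of 15 cases, 8 in the top decile, with glutathione reductase (Gsr, 13.25, 13.13 and 12.99), glutathione peroxidase 1 (Gpx1, 12.81, 12.86 and 12.98) and superoxide dismutase 1 (Sod1, 12.86, 12.82 and 12.96) the strongest. Prdx4 (4.90, 4.63 and 5.18), the peroxiredoxin of the endoplasmic reticulum, was not above the ceiling on any array.

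Immediate early genes, which cells switch on within minutes of a stimulus, varied between arrays. Of 19 immediate early and stress genes 12 were above background (63.2%, against 55.4% of all genes), among them the constitutive chaperones Hspa8 (13.18, 13.18 and 13.29) and Hsp90aa1 (12.58, 12.67 and 12.72), while the heat-inducible Hspa1a (3.37 ± 0.09) and Hspa1b (3.90 ± 0.18) were below background. Fos was at 7.92 ± 0.81 with array 1 the lowest, and Jun gave 7.99, 9.43 and 7.09, with array 2 the highest and an SD of 1.18. Interferon-stimulated genes were called in 11 of 19 cases (57.9%, near the share of all genes), led by Ifitm2 (11.47, 11.38 and 10.97) and Ifitm3 (10.56, 10.70 and 8.69), and the antiviral genes Mx1 (4.52 ± 0.08), Oasl2 (4.14 ± 0.22) and Usp18 (3.78 ± 0.10) were below background on all arrays.

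Lists of other tissues were measured to see what the fraction held besides blood cells. In these lists 8 of 18 liver, 3 of 10 kidney, 4 of 12 muscle, 3 of 12 neuron, 3 of 9 epithelium and 1 of 10 endothelium and stroma genes were above background, each below the 55.4% of all genes. Liver genes fell on both sides of the ceiling. Albumin (Alb, 4.84, 5.28 and 5.16), Fga (3.15 ± 0.16) and Cyp3a11 (3.28 ± 0.31) were among the 8 below it on every array, while the apolipoproteins Apoa2 (6.15 ± 0.17) and Apoa1 (5.95 ± 0.19), transthyretin (Ttr, 5.81 ± 0.09) and fetuin (Ahsg, 5.43 ± 0.01) were called at levels near it. Some members of these lists lay far above it. The carboxylesterase Ces1d gave 11.85, 12.09 and 12.02, with 2 more probe sets at means of 11.25 and 9.86, hydroxyacid oxidase Hao1 10.84, 10.79 and 9.99, the acyltransferase Glyat 9.37, 9.42 and 9.46, the kidney and brain enzyme aspartoacylase (Aspa) 11.34, 11.22 and 9.86, the neuronal kinase Camk2a 10.38, 10.68 and 10.28, with 4 of its 6 probe sets above background, and the keratin Krt18 9.35, 9.20 and 9.22. Krt8 (5.26, 4.75 and 5.35), the keratin that pairs with Krt18, was below background on all arrays. The summed linear signal of the endothelium and stroma list was 383, 395 and 334 on arrays 1 to 3, that of the liver list 6658, 7326 and 6379. Whether cells of other tissues were present was not tested.

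Array 3 differed from arrays 1 and 2 in a set of genes. By a rule that asks for a distance of at least 1 from both other arrays, where those lie within 0.5 of each other, 257 genes above background on at least 1 array stood apart on array 3, 69 higher and 188 lower. The same rule found 7 genes for array 1 and 5 for array 2. The genes with the greatest distance downward were Rhoj (7.17, 7.47 and 3.87), Arap2 (7.24, 7.01 and 4.07) and BC064078 (8.48, 8.07 and 5.44). The galectin Lgals1 (12.03, 11.89 and 9.71), the chitinase-like Chil3 (7.69, 8.01 and 5.51), Cpa3 and Rnf144b (8.83, 8.94 and 6.62) were also among the 10 lowest. Upward these were the ferroxidase hephaestin (Heph, 3.91, 3.58 and 7.75), Tex13b (5.23, 5.07 and 8.85), C2cd6 (3.62, 3.61 and 6.23), the Ets factors Etv4 (4.43, 4.19 and 6.98) and Etv5 (4.13, 4.15 and 6.26), the MAP kinase phosphatase Dusp4 (5.70, 5.83 and 8.19) and the phosphatase Ptprr (6.54, 6.77 and 9.08). The rise of Etv4 and Etv5 depended on the probe set. The other Etv4 probe set gave 4.25, 4.34 and 4.56. Of the other Etv5 probe sets, 1 gave 4.63, 4.38 and 4.89 and 1 gave 3.38, 3.73 and 5.75.

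The difference was then counted list by list. Over all 11352 genes above background on at least 1 array, array 3 minus the mean of arrays 1 and 2 had a median of -0.05, with 265 genes lower by 1 or more. The lists were chosen with earlier results of these data known, in which array 3 already stood apart. A gene that passed the ceiling on only some arrays entered these counts by being high there. In the secondary and late neutrophil list the median was -1.19, 15 of 16 genes were lower and 9 were lower by 1 or more, among them Anxa1 (8.86, 8.88 and 7.12), Padi4 (7.61, 7.80 and 6.46), Ifitm6 (7.60, 7.86 and 5.96) and the cathelicidin gene Camp (7.19, 7.41 and 5.58). Lcn2, Ngp and Cxcr2 entered this count through arrays 1 and 2 only, with differences of -1.13, -1.25 and -1.40. In the primary granule list the median was 0.05, with 6 of 15 lower and none by 1 or more. Against 6306 of 11352 genes lower in all, NADPH oxidase genes were lower in 6 of 6 cases (median -0.45), myeloid transcription factors in 23 of 29 (median -0.31), growth factor and cytokine receptors in 23 of 27 (median -0.34) and adhesion genes in 13 of 15 (median -0.49). The same direction was seen outside the myeloid lists, in fatty acid synthesis (11 of 11 lower, median -0.54), cholesterol synthesis (17 of 19, median -0.41), glycolysis (16 of 20, median -0.32) and lymphoid factors (6 of 7, median -0.56). Other lists went the other way, against 5046 of 11352 genes higher in all. Higher on array 3 were fatty acid oxidation (12 of 14, median 0.32), interferon-stimulated (9 of 12, 0.20), citric acid cycle (16 of 22, 0.13) and DNA replication genes (16 of 24, 0.14). Among interferon-stimulated genes, 2 were lower by 1 or more, Ifitm3 (-1.94) and Ifitm1 (-1.66), and 1 was higher by 1 or more. The summed linear signal of that list was 6173, 6231 and 4550 on arrays 1 to 3. Erythroid (5 of 5, 0.29) and dendritic and MHC class II genes (5 of 6, 0.23) were also mostly higher. Of these, Hba-a1 and H2-DMa entered through array 3 alone, and Gata1 and H2-Eb1 through arrays 2 and 3 only. A high value on array 3 was thus part of how they were counted. For ribosomal proteins the median was 0.00, and for oxidative phosphorylation 0.05. The ratio of the 3′ to the 5′ control probe set of Gapdh was 2.75, 2.68 and 2.91 on arrays 1 to 3 and that of actin 0.930, 0.976 and 0.885. A cause of the difference was not tested.

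**Figure D4:**
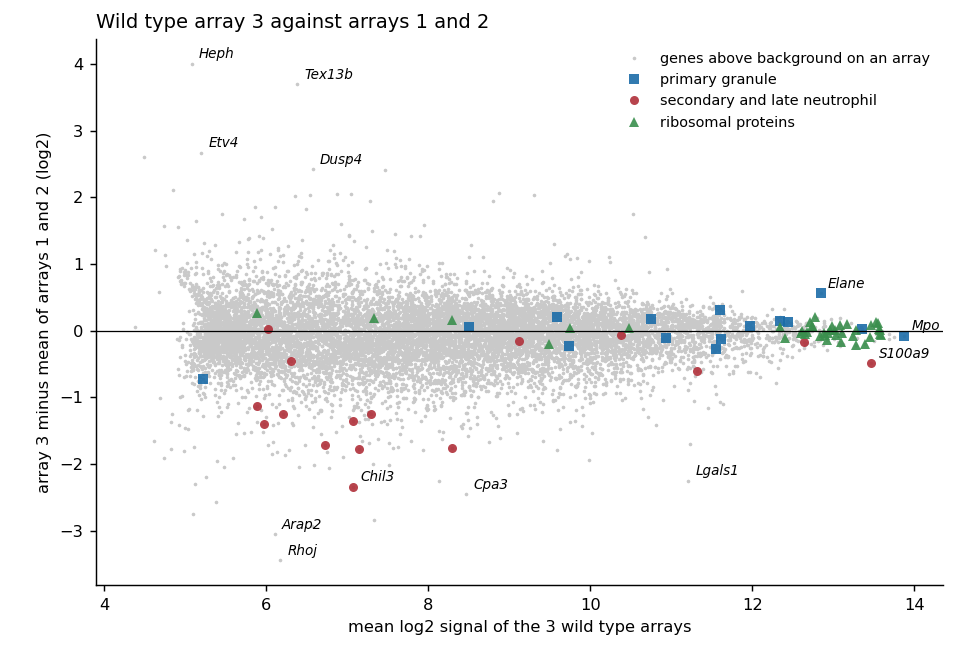
Difference of wild type array 3 from the mean of arrays 1 and 2 (vertical axis, log2) against the mean signal of the 3 arrays (horizontal axis, log2), for the 11352 genes above background on at least 1 array (grey), with 3 lists in colour. Of the 16 secondary and late neutrophil genes 15 lie below 0, by a median of -1.19, while the medians of the primary granule and ribosomal protein genes are 0.05 and 0.00. Lcn2, Ngp and Cxcr2 are among the 16 through arrays 1 and 2 only.

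Promoter sequence differed along the signal scale. The CpG ratio of the 250 bases before the start (observed over expected from base composition) had a median of 0.748 in 8265 genes above background that matched a RefSeq promoter and of 0.385 in 6188 genes not above it. From the lowest to the highest decile of signal the median went from 0.277 to 0.806, as a description of genes that share arrays and probe design. The primary granule genes, for all their signal, had a median of 0.206 and the secondary and late neutrophil genes 0.153, against 0.848 for ribosomal proteins and 0.860 for DNA replication. Letters were searched on both strands for 4 further motifs. The CCAAT box (CCAAT) was held by 35.7% of all genes with a promoter, by 17 of 19 mitosis genes, 15 of 21 DNA replication genes and 15 of 16 cholesterol synthesis genes. The GC box GGGCGG was held by 49.9% of all and by 15 of 16 cholesterol synthesis genes, and CCGGAAG, another Ets core whose last 5 letters also stand inside AGGAAGT, by 10.6% of all and 16 of 38 ribosomal protein genes. TATAAA was held by 9.02% of all, by 6 of 18 secondary and late neutrophil genes and by 4 of 9 mast cell and basophil genes. The motif counts describe letters in this window and no binding was measured.

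**Figure D5:**
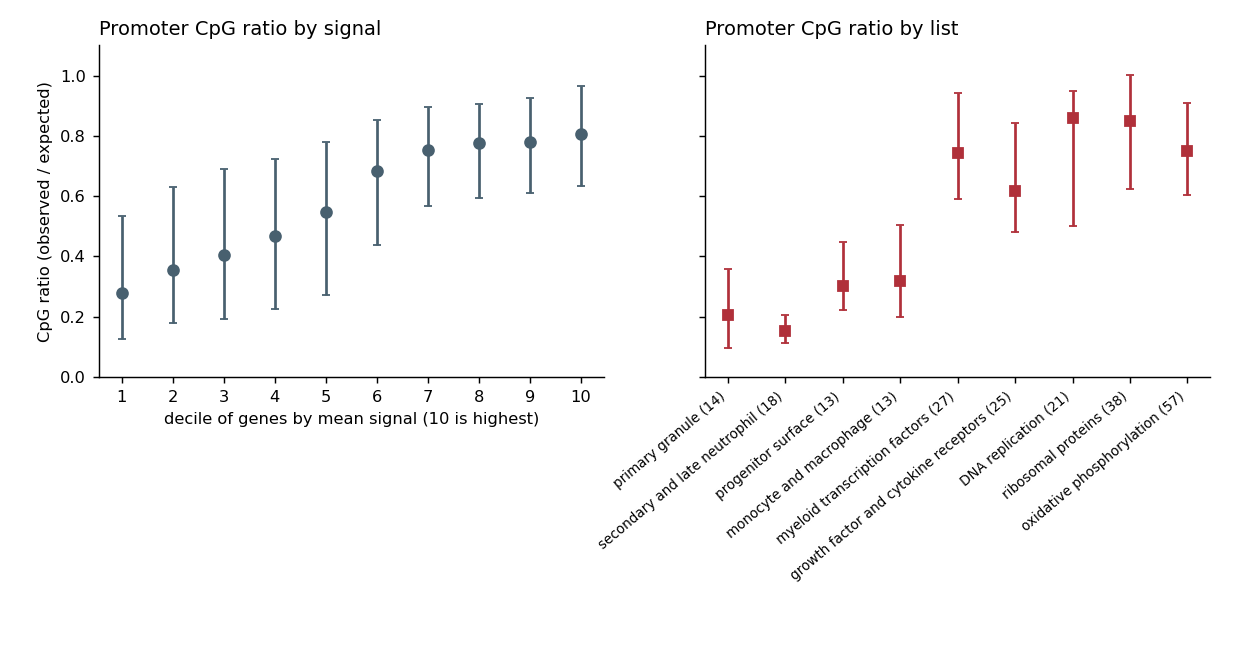
Left, median CpG ratio (observed over expected, vertical axis) of the 250 bases before the start for genes in deciles of mean wild type signal (horizontal axis), with bars from the lower to the upper quartile. Right, the same for selected lists with the number of matched genes in parentheses, where the primary granule list lies at 0.206, the secondary and late neutrophil list at 0.153 and the ribosomal protein list at 0.848.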

How the data were processed

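RNA of 3 sorted wild type FrII samples was measured on 1 expression array each. The authors deposited linear intensity values per probe set, normalised with RMA per the submitters' processing notes; its version and settings were not given in the sources used here. The values were at least 8 and were taken as log2, with no further scaling. Probe sets were named from the platform annotation; of 45101, 34958 had 1 symbol, 932 several and 9211 none, and 34754 symbols were checked by gene ID, of which 0 changed. A gene was represented by its probe set of highest mean. Background was the 95th percentile of 71 odorant and pheromone receptor genes on each array, 4 of which exceeded it on all 3 arrays.

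Members and the 47 lists (893 genes, 788 measured, 572 above background) were chosen with earlier results of these data known, so no test was made. Named were the 30 genes of highest signal, the 8 highest and 3 lowest per list, all sort gate and sex genes, Cebpa, Sox4 and the 10 genes per direction with array 3 farthest from the others. Named outside this rule, after their values were seen, were Alb, C3ar1, Camp, Ccr1, Cd14, Cd3d, Cd3e, Cd3g, Cd68, Cebpb, Cebpd, Cebpg, Cox7a2, Cox8a, Csf2ra, Csf2rb, Csf3r, Egr2, Fn1, Fos, H2-Aa, Hba-a2, Hk2, Hk3, Il1r1, Il3ra, Jun, Klf4, Lcn2, Lgals3, Ltf, Mmp8, Mmp9, Mx1, Ngp, Plac8, Procr, Prtn3, Runx1, Slamf1, Slc2a1, Spi1, Tubb1, Tyrobp and Vcan. Alternatives were another ceiling, the mean of probe sets, leaving out _x_at probe sets, quantile normalization and leaving out each array. Promoters came from RefSeq (GRCm38.p6), the first listed per gene. Motifs were searched on both strands. The scripts were tested on simulated data. Python 3.11.15, pandas 2.3.3, NumPy 2.4.6 and matplotlib 3.10.9 were used.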

Additional observations from a re-analysis of the deposited data

How the results depend on the processing

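The number of genes above background, 10084 as reported, was 8636 with the 99th percentile of the receptor genes, 11351 with the 40th percentile of all probe sets and 10174 to 10450 when 1 array was left out. Of the list members, 572 were above background as reported and 520 to 610 under the alternatives. Primary granule genes gave 14 under each alternative, myeloid transcription factors 27 to 29 and growth factor and cytokine receptors 22 to 26. The secondary and late neutrophil list gave 13 as reported, 8 with the 99th percentile, and 13 to 16 when 1 array was left out, 16 of them without array 3. Genes with array 3 apart numbered 257, 19 at a distance of at least 2 and 246 after quantile normalization, while the same rule gave 7 for array 1 and 5 for array 2. Taking the mean of all probe sets moved the mean of 244 of 504 named genes by at least 1 SD, and of the 349 named genes above background 20 lost the call and 8 others gained it. The 99th percentile moved the number above background by over 1.5 times in 9 of 47 lists, the 40th percentile of all probe sets and the mean of all probe sets in 3 each. With the mean of all probe sets the count in the top decile moved by over 1.5 times in 13 of 47 lists. No paired analysis was possible because no comparison between groups was made. Signals near the ceiling, and genes whose probe sets disagree, are the least certain.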

Other observations

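Further gene groups were looked at after the results above were known, and their lists were chosen then. The share of all genes called, to be set beside each count below, was 55.4%. Proteasome subunits were above background in 28 of 28 cases, 24 of them in the top decile of signal. Chromatin regulators were called in 22 of 23 cases, among them the DNA methyltransferases Dnmt3a (12.14, 11.94 and 11.57 on arrays 1 to 3) and Dnmt1 (11.74, 11.68 and 11.08) and the Polycomb methyltransferase Ezh2 (10.94, 10.83 and 11.03). Lysosomal genes were called in 17 of 18 cases. Among cell cycle entry genes, 19 of 23 were called, with the kinase gene Cdk4 at 11.31, 11.43 and 11.52 and cyclin D2 (Ccnd2) at 10.66, 10.62 and 11.57, so that array 3 was highest for Ccnd2. Of the inhibitors in that list, Cdkn1a (7.51, 8.29 and 8.48), Cdkn1c (6.82, 6.81 and 6.45) and Cdkn2d (6.53, 6.79 and 6.40) were called, Cdkn1b (5.45, 5.43 and 4.27) exceeded the ceiling on arrays 1 and 2, and Cdkn2a (4.02, 4.15 and 3.99), Cdkn2b (4.84, 4.17 and 4.32) and Cdkn2c (4.94, 4.99 and 4.53) exceeded it on none.

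In the BCL2 family 10 of 14 genes were above background (71.4%, against 55.4% of all genes), with the survival factor Mcl1 at 11.27, 11.43 and 11.09. The other calls were the survival genes Bcl2, Bcl2l1 and Bcl2l2 and the genes that promote cell death Bcl2l11, Bid, Bak1, Pmaip1, Bad and Bmf. Of these, Bcl2l11 was the highest, at 10.09, 9.94 and 9.83. Cytokine signalling genes were called in 21 of 26 cases, and the feedback inhibitors Socs1 (4.67, 4.57 and 4.04), Socs2 (4.01, 4.27 and 4.21) and Socs3 (4.08, 3.93 and 3.61) were not. Of 25 cytokine and chemokine genes 9 were called. The chemokine gene Ccl9 gave 10.11, 10.01 and 10.27, whereas Il6 (3.00, 3.00 and 3.00) lay at the floor of the deposited values and Il1b (4.75, 4.41 and 4.18) below background.

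The gene-level profile leaves out part of the strong signal. Of the 451 probe sets in the top hundredth of signal, 38 had no symbol and 108 had several, and 2712 probe sets without a symbol exceeded the ceiling on all 3 arrays.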
